A study of Mus musculus with 13 samples.

Results

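The 6 genes Smad1, Smad2, Smad3, Smad4, Smad5 and Smad9 encode the receptor-regulated SMADs and the common SMAD, and this account describes what was bound or acetylated around them in LβT2 cells, mouse pituitary cells that resemble gonadotropes. A peak belonged to a gene where the deposited HOMER annotation named that gene as the nearest and put the peak within 100 kb of its start. The 6 genes were found among 28143 genes with such a peak, and 183 of 538751 peaks in the 12 lists were theirs. One further peak carried a member's name from beyond that distance, a FOXL2 peak of activin replicate 2 at -132 kb from Smad3 with a fold of 4.59. The farthest peak within it was an H3K27ac peak at -94.0 kb from the same gene with a fold of 2.76.

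SMAD proteins carry the signal of activin, TGF-β and bone morphogenetic proteins (BMPs) from the receptors at the membrane to the DNA. SMAD2 and SMAD3 are phosphorylated by the activin and TGF-β type I receptors, SMAD1, SMAD5 and SMAD9 by the BMP type I receptors, and each group then joins SMAD4 and enters the nucleus. In gonadotropes activin drives the follicle-stimulating hormone β subunit gene through SMADs acting with the forkhead factor FOXL2, and the series addresses enhancers of that gene.

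The cells carried a lentiviral cassette with constitutive GFP and a doxycycline-inducible, FLAG-tagged mouse FOXL2, which every group shares, vehicle included. After 24 h of recovery came 48 h of doxycycline and 2 h in 2% serum. The final 1 h before fixation was spent in vehicle or in activin A at 1 nM. Chromatin was precipitated with antibodies to SMAD2/3, to FLAG (here FOXL2) or to acetylated lysine 27 of histone H3 (H3K27ac, found at promoters and enhancers in use). Each antibody and treatment has 2 libraries, each from 3 pooled plates. The FLAG antibody reads the induced protein and not endogenous FOXL2, and the SMAD2/3 libraries do not tell SMAD2 from SMAD3. The Protein-A control was not analysed here, so the values below have no measured background.

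Vehicle SMAD2/3 lists held 605 and 144 peaks against 7784 and 5970 with activin, FOXL2 lists 83834 to 97701 and H3K27ac lists 38995 to 41763. Reads per library are unknown. For marker genes, starts and distances are those of the deposited annotation. Of 10 gonadotrope markers, 9 had an H3K27ac region in all 4 libraries within 100 kb, Fshb being the exception, and 2 (Lhb and Nr5a1) were acetylated within 1 kb of the start in all 4. Of 8 markers of other pituitary lineages these counts were 2 and 0, and of 8 markers of leukocytes, endothelium, fibroblasts and folliculostellate cells 3 and 0. Among protein-coding genes with a peak, 61.2% had such a region and 38.6% such a start, so the share of acetylated starts among the gonadotrope markers was below that of all genes. In bulk chromatin, binding in more cells and more binding per cell cannot be told apart.

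The upstream sequences of 4 members are shown because the acetylation of these starts is described further on. Capitals mark each CG dinucleotide, which is frequent in CpG-island promoters. They run 5′ to 3′ in the direction of transcription up to the base before the gene, and come from RefSeq's GRCm38.p6, the build family (GRCm38, mm10) named in the submitters' processing notes.
Smad1 (chr8:79399429-79399678, minus strand): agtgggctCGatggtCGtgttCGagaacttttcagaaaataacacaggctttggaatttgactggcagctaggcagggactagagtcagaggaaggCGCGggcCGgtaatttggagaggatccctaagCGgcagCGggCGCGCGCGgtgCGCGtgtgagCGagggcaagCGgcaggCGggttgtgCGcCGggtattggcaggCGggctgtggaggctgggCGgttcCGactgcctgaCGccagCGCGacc
Smad3 (chr9:63757995-63758244, minus strand): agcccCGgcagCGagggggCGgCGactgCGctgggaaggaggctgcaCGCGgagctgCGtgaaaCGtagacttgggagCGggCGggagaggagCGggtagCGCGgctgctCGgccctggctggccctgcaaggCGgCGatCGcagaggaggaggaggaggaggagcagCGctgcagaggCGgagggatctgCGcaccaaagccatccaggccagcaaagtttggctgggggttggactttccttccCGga
Smad5 (chr13:56702760-56703009, plus strand): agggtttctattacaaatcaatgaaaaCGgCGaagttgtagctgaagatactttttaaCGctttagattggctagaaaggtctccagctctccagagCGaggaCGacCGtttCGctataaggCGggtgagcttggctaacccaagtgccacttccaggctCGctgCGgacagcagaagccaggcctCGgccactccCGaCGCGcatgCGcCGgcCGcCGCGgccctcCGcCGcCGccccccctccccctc
Smad9 (chr3:54755332-54755454, plus strand): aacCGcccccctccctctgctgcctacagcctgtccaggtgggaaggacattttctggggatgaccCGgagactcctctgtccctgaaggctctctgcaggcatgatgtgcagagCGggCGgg
The Smad9 line holds the 123 bases of its listed 250 that lie before the gene, with 4 CG dinucleotides, and the others of that window lie inside the gene. The 250 bases upstream of the listed starts held 25 CG dinucleotides for Smad1, 22 for Smad3, 22 for Smad5 and 24 for Smad9, against a median of 6 over 32841 promoters. The share of G and C in these windows was 63.6%, 69.2%, 60% and 73.2%. Searched on both strands, none of these 4 windows held CAGAC (a SMAD-binding element, in 42.2% of all promoters), GTCTAGAC (the palindromic SMAD element, 0.167%), TGTTTAC (a forkhead element, 3.17%) or GTCAAGG (part of a FOXL2 response element, 2.75%). Smad2 and Smad4 are named only.

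The starts to which the deposited distances refer lay within 1.1 kb of the RefSeq starts for Smad1, Smad2, Smad5 and Smad9. For Smad3 the deposited start lay 46 kb inside the gene and for Smad4 54 kb inside it. Distances below are therefore from the RefSeq start unless called deposited. Positions are those of GRCm38, counted from 1.

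The first question was whether SMAD2/3 occupied the SMAD genes after activin. The vehicle lists held 0 and 0 SMAD2/3 peaks near the 6 genes, and the activin lists held 3 and 2. The groups did not overlap, and the difference of 2.5 peaks against a pooled SD of 0.5 gave an exact two-sided permutation p of 0.33, the smallest that 2 against 2 libraries allow. Merged over libraries at 1 bp of overlap or more, these peaks made 3 regions, at Smad2 and Smad3. Of them, 2 were activin-only, with a peak in both activin and neither vehicle library, 0 were vehicle-only and 0 were in all 4 libraries. Over all 8602 SMAD2/3 regions these shares were 54%, 0.0233% and 1.53%, so an activin-only pattern is what most SMAD2/3 regions showed. Cut to equal lengths of 144 peaks, the lists held none near these genes. Smad1, Smad4, Smad5 and Smad9 had no SMAD2/3 peak in any list, as was the case for most genes: 17% of 15377 protein-coding genes with a peak of any antibody had one, and 10.4% had an activin-only region.

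**Figure D1:**
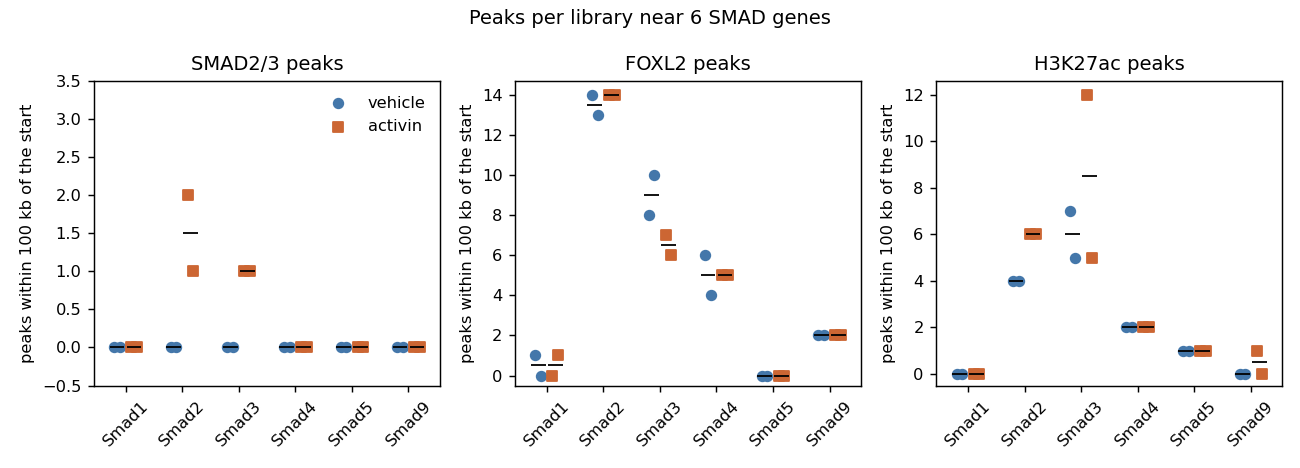
Number of peaks (y axis) of SMAD2/3, FOXL2 and H3K27ac within 100 kb of the deposited start of each of 6 SMAD genes (x axis), 1 point per library, with circles for vehicle, squares for activin and a line at the mean of 2 libraries. SMAD2/3 peaks stand at Smad2 and Smad3 in the activin libraries, and the 12 H3K27ac peaks of Smad3 in activin replicate 1 stand above the 5 to 7 of the other libraries.

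Smad3 encodes a SMAD that binds DNA directly and is known to act with FOXL2 on the mouse Fshb promoter. Its SMAD2/3 region, on chromosome 9 from 63663322 to 63663571, lay in intron 5 of 6 of the annotated transcript, 94.5 kb downstream of the start (deposited distance 48.5 kb). The peak ranked 3256 of 7784 in activin replicate 1 and 3102 of 5970 in activin replicate 2. The authors' fold enrichments were 4.68 and 4.47, and no vehicle list held a peak there. The site thus sat near the middle of both activin lists by −log10 q.

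The stretch around this site carried FOXL2 and H3K27ac under vehicle too. The FOXL2 region over it, from 63662793 to 63663624, was the strongest of those annotated to the 6 genes by mean percentile rank, meaning the place of a peak when its list is ordered by −log10 q, where the strongest is at 100. Ranks from lists of different lengths place a region within each list and show no change between treatments. It ranked at 94.4 and 98.3 in the vehicle lists and at 92.8 and 96.4 in the activin lists, so the treatments overlapped. Its strongest summits lay at 63662998 and 63662995 under vehicle against 63662997 and 63663000 under activin, a span of 5 bp. The SMAD2/3 summits lay to one side, at 63663465 and 63663494, which was 468 bp and 494 bp from the FOXL2 summit of the same-numbered activin library. In activin replicate 1 the FOXL2 peak ended 179 bp short of the SMAD2/3 peak, and in activin replicate 2 it reached into it. In vehicle replicate 1 the FOXL2 peak ended 200 bp and 174 bp short of the SMAD2/3 peaks of activin replicates 1 and 2. Vehicle replicate 2 held a separate FOXL2 peak here, with its summit at 63663513, 48 bp and 19 bp from the SMAD2/3 summits. A FOXL2 summit this near to those of SMAD2/3 was found in 1 of 4 libraries. Among all activin SMAD2/3 peaks, 79.4% and 82.3% touched a FOXL2 peak of the same-numbered library and 67.7% and 62.8% an H3K27ac peak.

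**Figure D2:**
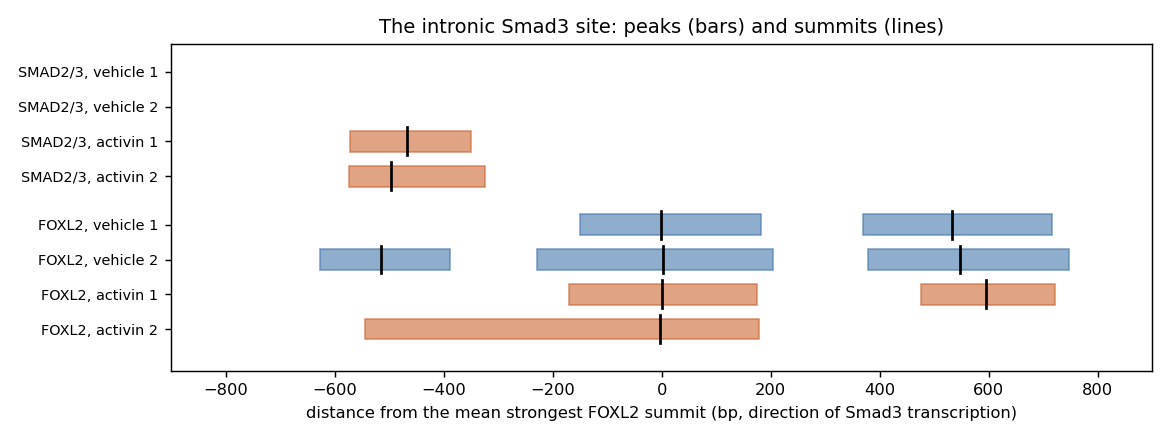
Peaks (bars) and summits (black lines) of SMAD2/3 and FOXL2 in intron 5 of Smad3, with distance in bp from the mean of the 4 strongest FOXL2 summits on the x axis and 1 row per library, blue for vehicle and orange for activin. The 4 strongest FOXL2 summits lie within 5 bp, the SMAD2/3 summits stand 468 bp and 494 bp upstream of those of their own replicate number, and the separate FOXL2 peak on the left is in vehicle replicate 2.

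The H3K27ac region around the Smad3 site ran from 63660429 to 63667521, 7093 bp, wider than 98.6% of all H3K27ac regions. It took places 70 of 41150 and 57 of 40398 in the vehicle lists. In the activin lists it took places 236 of 41763 and 448 of 38995. Its fold was 8.91 and 8.82 under vehicle against 8.23 and 7.41 under activin. Both vehicle values stood above both activin values, while the region stayed among the strongest in each list. By rank, 31.2% of all H3K27ac regions in 4 libraries stood higher in both vehicle libraries. The Smad3 region lay 94.0 kb downstream of the start, in introns near the gene's 3′ end. Of the 9 FOXL2 regions of Smad3, 7 clustered between 91.95 kb and 101 kb downstream of the start, inside or beside this domain.

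The start of Smad3 was only weakly acetylated. An H3K27ac region from 63756921 to 63757651, in intron 1, ranked at 7.49 and 36.2 in the vehicle lists and at 35.9 and 53.7 in the activin lists. On the upstream side a region from 63758365 to 63758804 had a peak in vehicle replicate 1 and both activin libraries, at ranks 37.2, 32.8 and 38.5. The printed Smad3 sequence fills part of the gap between them. The ranks at the start overlapped between treatments and lay far under those of the intronic domain in all 4 libraries.

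The other 2 FOXL2 regions of Smad3 lay away from the domain. One at 12.3 kb in intron 1, on chromosome 9 from 63745469 to 63745902, ranked at 47.8 and 48.4 in the vehicle lists and at 66.5 and 65.5 in the activin lists, with no overlap. Another at -47.6 kb, from 63805273 to 63805909, ranked at 86.5 and 90.3 in the vehicle lists and at 90.6 and 92.95 in the activin lists. Its ranks did not overlap, but its places did: 11660 and 8143 under vehicle, 9180 and 6619 under activin. Such an order was common, as 29.9% of FOXL2 regions in all 4 libraries ranked higher in both activin libraries. Within the domain, a weak FOXL2 region at 91.95 kb, from 63665923 to 63666159, was vehicle-only, with folds of 4.895 and 3.5. Smad3 had 8 and 10 FOXL2 peaks under vehicle, 7 and 6 under activin. This difference of -2.5 against a pooled SD of 1.12 had an exact permutation p of 0.33. It was the largest per-gene FOXL2 difference among the 6 genes.

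**Figure D3:**
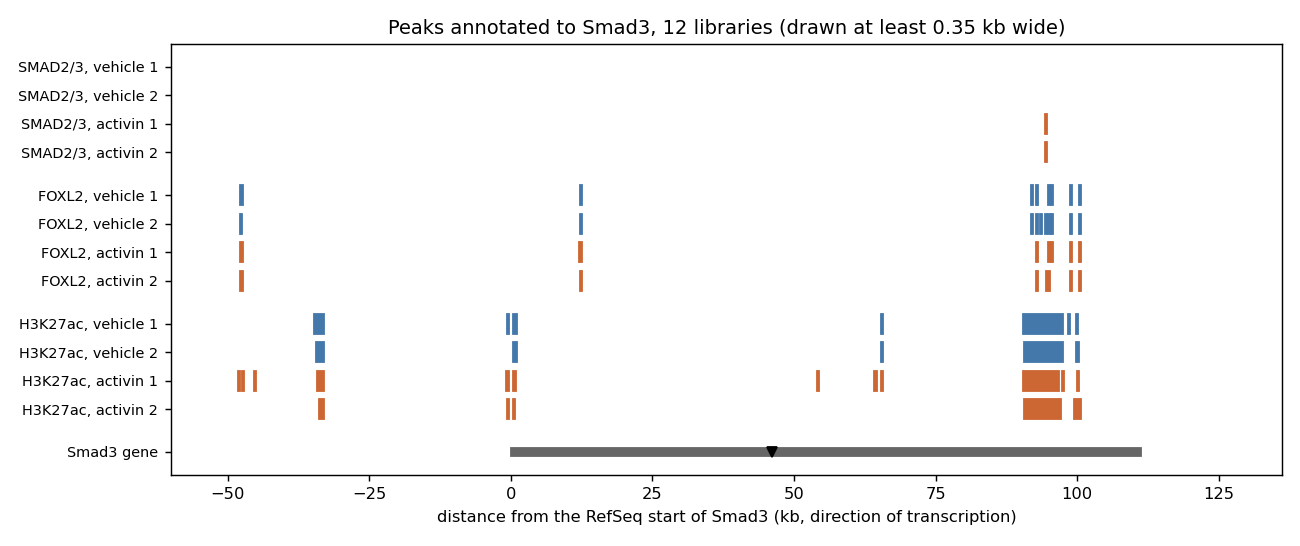
Peaks annotated to Smad3 in 12 libraries (rows, blue for vehicle, orange for activin) against distance from the RefSeq start in kb (x axis), with the gene as a grey bar and the deposited start as a black triangle. FOXL2 and H3K27ac peaks crowd near the 3′ end of the gene in both treatments, and SMAD2/3 peaks appear there in the activin libraries.

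Smad2 encodes the other activin-regulated SMAD, whose common splice form does not bind DNA by itself. It had SMAD2/3 peaks upstream of the gene and not within it. The activin-only region at -12.6 kb, between genes on chromosome 18 from 76228356 to 76228540, had ranks of 43.9 and 20.2 and folds of 4.02 and 3.58. A neighbouring region from 76228620 to 76228886 was in activin replicate 1 alone, with a rank of 55.5 and a fold of 4.83. Both lay inside an H3K27ac region from 76226996 to 76232109, 5114 bp wide, that had the highest mean rank among the regions annotated to Smad2. A region at -79.9 kb, annotated to Mir6358, ranked higher in all 4 libraries. The region from 76226996 to 76232109 ranked at 94.2 and 94.1 in the vehicle lists and at 96.5 and 95.9 in the activin lists. Both activin ranks stood above both vehicle ranks, as in 26.4% of H3K27ac regions in all 4 libraries. No FOXL2 peak overlapped these SMAD2/3 peaks, in contrast to the Smad3 site. From the summit of the activin-only region the nearest FOXL2 summit was 5816 bp away in the first activin library and 5839 bp in the other. A weak FOXL2 peak of vehicle replicate 2 lay nearer, at 2629 bp and 2621 bp.

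The body of Smad2 held many FOXL2 regions. The gene had 17 in all, more than 96.8% of protein-coding genes had, of which 11 were in all 4 libraries, and the lists held 14 and 13 FOXL2 peaks under vehicle against 14 and 14 under activin. The strongest, at 35.5 kb in an intron from 76276325 to 76276803, ranked at 93.5 and 90.1 in the vehicle lists and at 93.6 and 90.4 in the activin lists, and its 4 summits spanned 21 bp. The region at 43.9 kb, from 76284571 to 76285356, ranked at 93.3 and 95.7 in the vehicle lists and at 85.8 and 88.0 in the activin lists. The region at 71.1 kb, past the end of the gene from 76311879 to 76312510, ranked at 82.6 and 91.4 in the vehicle lists and at 92.6 and 93.1 in the activin lists. Regions of one gene thus stood in either order, or overlapped, between the treatments. Of all FOXL2 regions in 4 libraries, 29.9% ranked higher in both activin and 28.1% in both vehicle libraries. One weak region at 41.7 kb, from 76282702 to 76282924, was activin-only, with folds of 2.77 and 4.05, and one at 36.2 kb, from 76277122 to 76277372, was vehicle-only, with folds of 3.23 and 3.79.

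At the Smad2 start, H3K27ac from 76238137 to 76241639 ranked at 74.1 and 74.1 in the vehicle lists and at 79.4 and 79.9 in the activin lists, with no overlap. This order was shown by 26.4% of all H3K27ac regions in 4 libraries. The ranks given are those of the strongest peak in the region. The vehicle lists held it as 1 peak of 2798 bp and 3026 bp. The activin lists held 2 shorter peaks each, of 1026 bp and 1148 bp and of 1399 bp and 634 bp, and the weaker peak of each ranked at 53.3 and 51.1, below both vehicle values. Smad2 accordingly had 4 and 4 H3K27ac peaks under vehicle, 6 and 6 under activin (exact permutation p = 0.33), a difference made of this division and of 1 weak extra region in each activin library. A FOXL2 region just inside the gene, from 76242526 to 76243038 at 1.69 kb, ranked at 52.5 and 48.1 in the vehicle lists and at 70.9 and 61.1 in the activin lists. Of all FOXL2 regions in 4 libraries, 29.9% ranked higher in both activin libraries. The FOXL2 region lay in an H3K27ac region from 76242144 to 76243185 whose ranks overlapped (54.5 and 52.2 against 63.6 and 47.8).

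**Figure D4:**
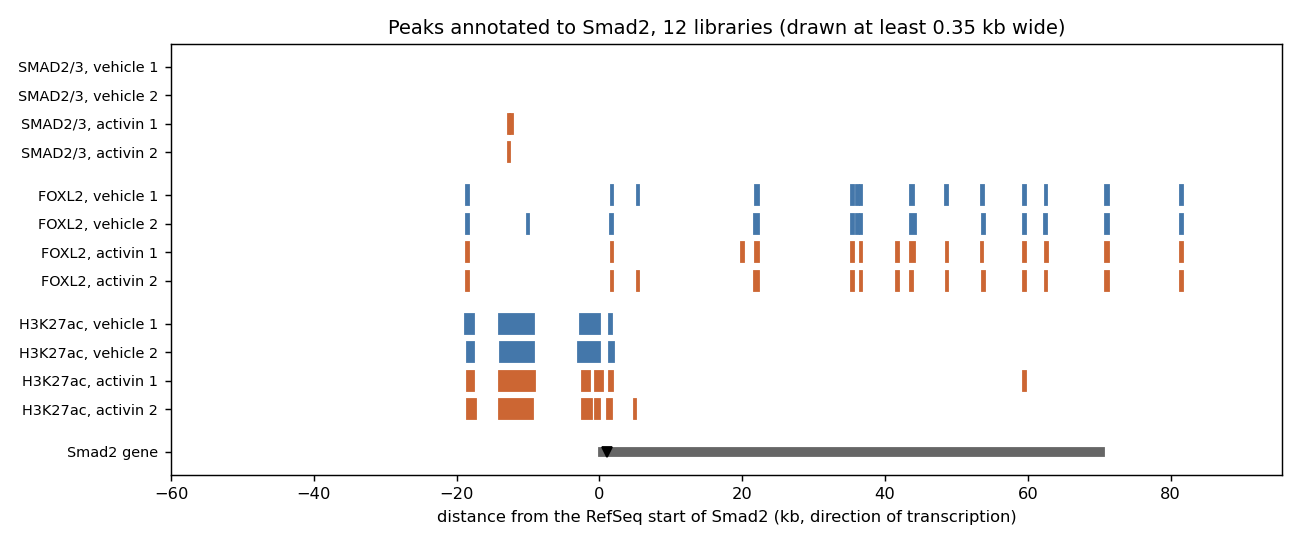
Peaks annotated to Smad2 in 12 libraries (rows, blue for vehicle, orange for activin) against distance from the RefSeq start in kb (x axis), with the gene as a grey bar and the deposited start as a black triangle. H3K27ac lies upstream and at the start, FOXL2 lies along the gene, and the SMAD2/3 peaks of the activin libraries lie in the upstream acetylated region.

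Smad4 encodes the common partner of both groups of receptor-regulated SMADs. No SMAD2/3 peak was annotated to it. Its 5 FOXL2 regions gave 6 and 4 peaks under vehicle, 5 and 5 under activin. The strongest, on chromosome 18 from 73674904 to 73675316 at 28.7 kb in the gene (classed by HOMER as a promoter of a transcript), ranked at 73.5 and 57.0 in the vehicle lists and at 76.3 and 75.8 in the activin lists. Both of its H3K27ac regions ranked higher in both vehicle libraries, as did 31.2% of all H3K27ac regions in 4 libraries. The one in intron 1 from 73699286 to 73703056 ranked at 58.9 and 66.4 in the vehicle lists and at 45.2 and 36.8 in the activin lists. The vehicle lists held this region as 1 peak each, of 3423 bp and 3740 bp. The activin lists held 2 peaks each, and their ranks are those of the stronger, of 1247 bp and 1187 bp. The other region, at 56.3 kb from 73646383 to 73648503, ranked at 39.6 and 48.5 in the vehicle lists and at 14.4 and 20.2 in the activin lists. The FOXL2 region inside the latter, from 73647276 to 73647872, ranked at 68.9 and 79.0 against 53.6 and 53.5. Of all FOXL2 regions in 4 libraries, 29.9% ranked higher in both activin and 28.1% in both vehicle libraries.

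Regions upstream of the RefSeq start of Smad4 carried the names of neighbours. The deposited start lies inside the gene, which gave some regions beside the RefSeq start a neighbour's name. Regions farther upstream were nearer to a neighbour's start in any case. A strong H3K27ac region over the upstream side of the start, from 73703942 to 73704832, was annotated to Elac1 and ranked at 92.7 and 92.6 in the vehicle lists and at 92.9 and 91.9 in the activin lists. Within 100 kb of the RefSeq start, 3 SMAD2/3 regions were annotated to Elac1 or Me2, of which 1 was activin-only. That one, at -77.7 kb from 73781400 to 73781593, had ranks of 33.2 and 26.1 and lay on a FOXL2 region that ranked at 95.2 and 98.2 in the vehicle lists and at 98.4 and 99.3 in the activin lists. An H3K27ac region there had a peak in vehicle replicate 1 at a rank of 26.1 and in both activin libraries at 58.9 and 54.8. A second, at -30.1 kb and in activin replicate 1 alone, lay inside an activin-only H3K27ac region from 73733120 to 73734527 with ranks of 57.9 and 64.3. An activin-only FOXL2 region with ranks of 12.8 and 20.3 lay at the same place. The third, at -88.4 kb and also in activin replicate 1 alone, lay in an H3K27ac region that ranked at 81.0 and 77.9 in the vehicle lists and at 94.2 and 94.5 in the activin lists. A FOXL2 region there, from 73791585 to 73792330, ranked at 67.7 and 72.0 under vehicle, 65.6 and 64.6 under activin. Of 17 FOXL2 regions within 100 kb, 3 were activin-only, against 8.95% of all FOXL2 regions. The strongest of the 3 lay at -50.0 kb with ranks of 74.8 and 77.2. Of 13 H3K27ac regions 1 was activin-only, against 5.84%. Over all regions in 4 libraries, 29.9% for FOXL2 and 26.4% for H3K27ac ranked higher in both activin libraries. In both vehicle libraries it was 28.1% for FOXL2 and 31.2% for H3K27ac. Which gene any of the regions named here serves was not tested.

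The genes of the BMP-regulated SMADs had no SMAD2/3 peak and differed at their starts. Smad1 encodes a substrate of the BMP type I receptors. No H3K27ac region in any of the 4 libraries lay within 100 kb of its RefSeq start, although its upstream sequence is rich in CG dinucleotides. The FOXL2 peaks annotated to it were 1 weak peak in vehicle replicate 1 and 1 in activin replicate 2, at different places in introns, with folds of 5.51 and 6.41. Within 100 kb of its RefSeq start lay 4 further FOXL2 regions, annotated to Gm4890, of which 3 were in all 4 libraries. The strongest of them, at 99.3 kb, ranked at 80.3 and 87.3 in the vehicle lists and at 84.3 and 84.6 in the activin lists. Of 15377 protein-coding genes, 75.2% had an H3K27ac region and 82.6% a FOXL2 region. These shares count regions annotated to the gene within 100 kb of its deposited start, a measure unlike the counts by RefSeq distance alone.

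Smad5, which acts downstream of the same receptors, was the BMP-regulated gene with a strongly acetylated start. The H3K27ac region on chromosome 13 from 56702507 to 56702959 covers most of the Smad5 sequence printed above. It ranked at 79.3 and 82.4 in the vehicle lists and at 95.3 and 89.7 in the activin lists, with folds of 6.50 and 6.46 against 9.78 and 7.63. A second region from 56703514 to 56703862, just inside Smad5 and annotated to Gm27301, ranked at 44.5 and 62.7 in the vehicle lists and at 85.7 and 74.1 in the activin lists. At both flanks of this start both activin values stood above both vehicle values, as by rank in 26.4% of all H3K27ac regions in 4 libraries. No FOXL2 peak was annotated to Smad5. The 7 FOXL2 regions within 100 kb of its start carried other genes' names, 3 activin-only, 1 vehicle-only and 1 in all 4 libraries, against 8.95%, 3.22% and 46.8% of all FOXL2 regions.

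Smad9, the remaining BMP-regulated SMAD, had FOXL2 in intron 1, more than 1 kb from its start, and hardly any acetylation at the start. A FOXL2 region in intron 1 on chromosome 3 from 54756628 to 54757049, at 1.38 kb, had folds of 30.8 and 23.4 under vehicle against 20.8 and 19.4 under activin. It ranked at 95.1 and 93.3 in the vehicle lists and at 89.1 and 89.1 in the activin lists. A second at 2.44 kb, from 54757583 to 54758212, ranked at 80.3 and 74.9 against 62.1 and 71.2. In both regions both vehicle libraries stood above both activin libraries, as by rank in 28.1% of all FOXL2 regions in 4 libraries. The single H3K27ac peak annotated to the gene, from 54755756 to 54755945, was in activin replicate 1 alone at a rank of 6.87 with a width of 190 bp. Neither FOXL2 region touched H3K27ac in any library. Within 100 kb of the RefSeq start lay 8 H3K27ac regions, 7 annotated to other genes, and 4 of the 8 were in all 4 libraries. Some lay inside the gene, such as 54791439 to 54792099, annotated to Rfxap, at ranks of 36.6 and 51.2 under vehicle and 28.1 in activin replicate 1. Of 8 FOXL2 regions there, 6 carried other names. The one at -67.9 kb, annotated to Supt20, ranked at 99.3 and 99.9 under vehicle, 99.3 and 99.5 under activin.

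Over the 6 genes, FOXL2 gave 31 and 29 peaks under vehicle, 28 and 28 under activin, a difference of -2. The pooled SD was 1 and the exact permutation p was 0.33. The direction turned when peaks were assigned by distance alone: the difference was 1 for any region within 100 kb of a deposited start and 0.5 for the RefSeq start. Of 35 FOXL2 regions, 22 (62.9%) were in all 4 libraries, against 46.8% of 124781 regions. Activin-only was 1 region (background 8.95%) and vehicle-only 2 (background 3.22%). By distance alone, activin-only regions were 6 from a deposited start and 7 from the RefSeq start, and vehicle-only regions 5 and 5. These counts have larger totals than the 35. From the RefSeq starts the regions numbered 6 at Smad1, 20 at Smad2, 9 at Smad3, 17 at Smad4, 7 at Smad5 and 8 at Smad9. Of the 22, 9 ranked higher in both activin libraries (background 29.9%) and 5 in both vehicle libraries (background 28.1%). With lists of equal length these counts were 4 and 8 of 21 regions, so their order turned. Over the 22 regions the strongest summits of the 4 libraries spanned a median of 42 bp, from 5 to 209 bp, against a median of 53 bp over 58444 regions. Of the 22, 5 touched an H3K27ac peak in all 4 H3K27ac libraries and 14 in none, or 22.7% and 63.6%, against 15.1% and 70.6% of all FOXL2 regions in 4 libraries.

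**Figure D5:**
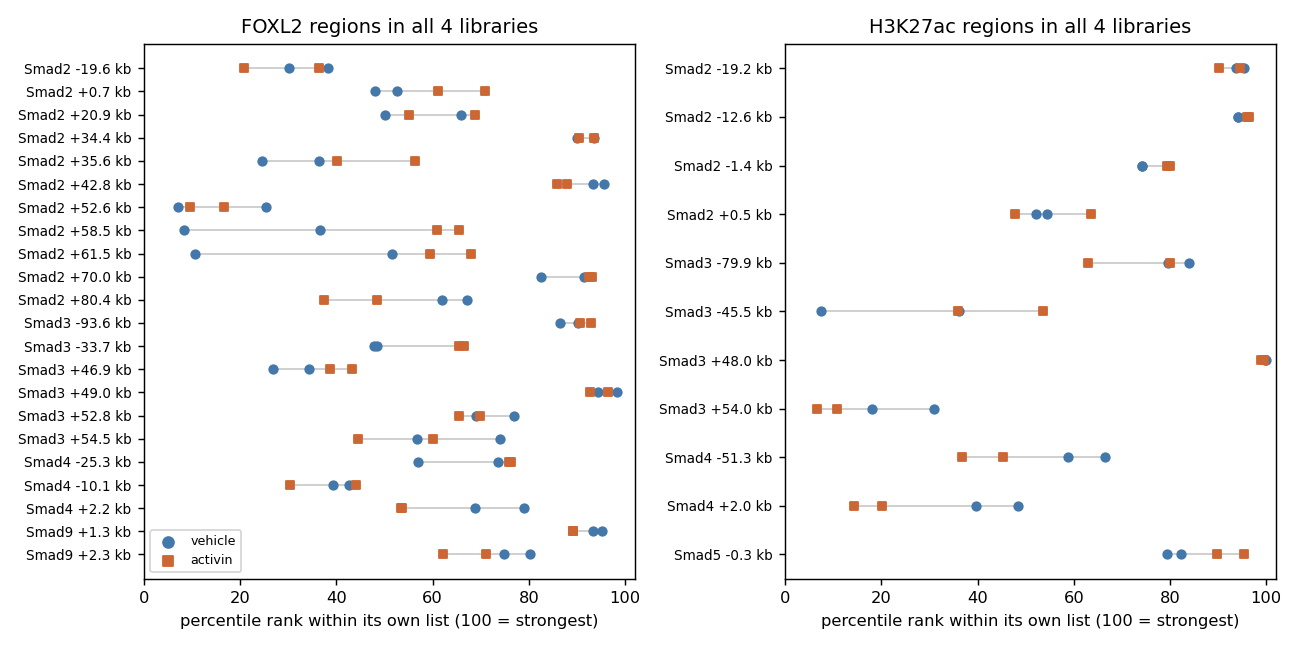
Percentile rank within its own list (x axis, 100 the strongest) of each FOXL2 region (left, 22) and H3K27ac region (right, 11) present in all 4 libraries, 1 row per region named by gene and deposited distance in kb, circles for vehicle and squares for activin. The H3K27ac region of Smad3 at a deposited 48.0 kb lies at 98.9 or above in every library, the Smad5 start is higher in both activin lists, and both Smad4 regions and both Smad9 regions are higher in both vehicle lists.

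H3K27ac gave 14 and 12 peaks under vehicle, 22 and 14 under activin. The difference of 5 peaks against a pooled SD of 4.12 had an exact permutation p of 0.667, and activin replicate 1 carried it: without that library the difference was 1. With peaks of −log10 q of at least 5 it was -1. Of the 9 H3K27ac regions found in a single library, 7 were in activin replicate 1, at ranks of 0.407 to 15.5. Of 22 regions, 11 were in all 4 libraries (45.9% of 53008 regions were), 0 were activin-only (background 5.84%) and 0 vehicle-only (background 6.79%). Without activin replicate 2 the activin-only count was 7. Of the 11, 3 ranked higher in both activin libraries (background 26.4%) and 4 in both vehicle libraries (background 31.2%). Smad3 had 12 H3K27ac regions, more than 99.0% of protein-coding genes had, but 4 of these were in all 4 libraries and 6 in a single one.

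Other genes of the pathway were read from a list of 24 receptors, adaptors, corepressors and inhibitors, of which 19 had a region. Starts and distances for this list are the deposited ones. An activin-only SMAD2/3 region stood near 4 of them: Bmpr1a and Bmpr1b, BMP type I receptors, Zfyve9, which presents SMADs to the receptor, and Ldlrad4, an inhibitor of SMAD phosphorylation. None had a SMAD2/3 region that was vehicle-only or in all 4 libraries. Among the 15377 protein-coding genes with a peak, 10.4% had an activin-only, 0.013% a vehicle-only and 0.358% a constant SMAD2/3 region. FOXL2 was present in all 4 libraries near 16 of the 24 (background 55.6%), with an activin-only region near 8 (21.6%) and a vehicle-only region near 3 (10.3%). H3K27ac was in all 4 libraries near 16 (61.2%), activin-only near 2 (8.15%) and vehicle-only near 2 (8.47%). The deposited start was acetylated within 1 kb in all 4 libraries in 9 (38.6%), among them the activin receptors Acvr1b and Acvr2b and the inhibitory SMAD gene Smad7.

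The genes whose 12-library profile was most like that of each member were found by the Euclidean distance between summed percentile ranks, divided by 100, within 100 kb of the deposited start. For Smad3 these were Agpat5 at 1.13, Chst15 at 1.26 and Ripk4 at 1.42, against a median distance of 9.75 over 15376 genes. For Smad2 they were Hells at 1.60, Cdo1 at 1.86 and Ccser2 at 1.88, against a median of 13.8. For Smad4 they were Iqub, Inpp5d and Pphln1 at 0.597 to 0.629, against a median of 4.03. The profiles of Smad1, Smad5 and Smad9 rest on few peaks. Their nearest were Otog, 4921506M07Rik and Krt20 for Smad1, Gm13547, Tep1 and Abcg1 for Smad5, and Abca15, Alg11 and Cd28 for Smad9.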

How the data were processed

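Chromatin immunoprecipitation followed by sequencing gave 12 libraries. The submitters' processing notes name Bowtie2, MACS2, HOMER, GRCm38 and mm10, with no role or version. The authors called peaks per library, per the peak names, and deposited for each peak a fold (a linear ratio over a background not described), its p and its q as −log10 values, and a score, 10 times the latter. The annotation comes from annotatePeaks.pl, per the file headers. How the control was used is not given in the sources used here.

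Peaks within 100 kb of a member's deposited start were kept, regions were merged at 1 bp or more, and peaks were ranked by −log10 q within their list. Numbers of peaks per library were compared by exact two-sided permutation over 6 labellings (Python 3.11.15, numpy 2.4.6, pandas 2.3.3). The merging, the assignment to members and the activin-only, vehicle-only and all-library calls were tested on simulated data. Labels give duplicate samples of pooled plates, so p-values measure the spread between these, which may be technical. Depth is unknown and limits every absence.

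All 6 members were described, with every SMAD2/3 region, what overlaps it, the regions at each start, the strongest FOXL2 and distal H3K27ac region of each gene, and activin-only and vehicle-only regions. Regions named for other reasons, such as those around RefSeq starts, were chosen after their values were seen. The members and lists were chosen with earlier results of these data known. Alternatives covered distance, q threshold, list length, merging, assignment, the replicate block and leaving out each library.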

Additional observations from a re-analysis of the deposited data

How the results depend on the processing

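The difference in SMAD2/3 peaks kept its sign under the alternatives run, from 2 to 3 peaks when libraries were left out in turn, except with lists of equal length, where the difference and the activin-only count were 0 and 0. The FOXL2 difference of -2 ran from -3 to -1 without single libraries and turned to 1 for any region within 100 kb of a deposited start and to 0.5 for the RefSeq start, an alternative added after the data were seen. The H3K27ac difference of 5 ran from 1 to 9 without single libraries and turned to -1 with −log10 q of at least 5. The causes were not tested.

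The distance assignments take in more regions than the annotation does, so their counts have larger totals. FOXL2 activin-only regions (1) were 0 with −log10 q of at least 5, 0 with lists of equal length, 6 by distance from any deposited start, 7 from RefSeq starts and 1 to 3 without single libraries. FOXL2 vehicle-only regions (2) were 1, with −log10 q of at least 5, 5 and 5 under the distance assignments and 3 to 4 without single libraries. Constant FOXL2 regions ranked higher in both activin libraries (9) were 5 within 50 kb, 4 with lists of equal length and 10 to 12 without single libraries, and those higher in both vehicle libraries (5) were 8 with lists of equal length and 7 to 9 without single libraries. H3K27ac activin-only regions (0) were 3 from any deposited start, 1 from RefSeq starts and 0 to 7 without single libraries, and vehicle-only regions (0) were 1 with −log10 q of at least 5 and 0 to 1 without single libraries. Constant H3K27ac regions higher in both activin libraries (3) were 6 and 7 under the distance assignments and 3 to 5 without single libraries, and those higher in both vehicle libraries (4) were 2 within 50 kb, 7 from any deposited start and 4 to 7 without single libraries.

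With the replicate block, pairing libraries by number, the differences stayed 2.5, -2 and 5 peaks for SMAD2/3, FOXL2 and H3K27ac, each with an exact sign-flip p of 0.5, the smallest that 2 pairs allow. Ordered within pairs, 11 constant FOXL2 regions were higher with activin in both pairs and 9 with vehicle, and 4 and 5 H3K27ac regions. Deviations of same-numbered libraries correlated at 0.132 for FOXL2 and -0.028 for H3K27ac across regions. With 2 pairs, and no label that ties a number to a shared batch, the numbers were not taken to pair the libraries. Of 130 alternatives, 93 kept the sign of a difference or a count near its main value, 34 moved it and 3 reversed the sign. Differences were judged by sign alone, so their size could change.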
